A study of Mus musculus with 536 samples.

Results

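The 35 genes described here encode the constitutive subunits and assembly chaperones of the mouse proteasome. They are all the genes whose symbol is Psma, Psmb, Psmc or Psmd followed by a number, leaving out the immunoproteasome genes Psmb8, Psmb9 and Psmb10. The rule found 35 of the 12393 genes measured by probe sets with a single gene symbol, and used no measured value except to choose, for the 17 members with several probe sets, the one that was brightest on average. The members comprise 8 alpha subunits and 7 beta subunits of the 20S core, 6 ATPases and 3 other subunits of the 19S base, 8 lid subunits and 3 chaperones of base assembly (Psmd5, Psmd9 and Psmd10). All values are log2 signals on Affymetrix Mouse 430A 2.0 arrays, so a difference of 1 is a doubling of signal.

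The mice were C57BL/6, female and male and 10 to 12 weeks old, and carried no engineered allele that the labels name. They had been exposed over the whole body, once, to gamma rays of a caesium source at 480 cGy/min, or 0 cGy, and blood was drawn by terminal heart puncture. The mice formed 4 sets. The dose-time series held 240 mice with no added agent, 5 in each of 48 groups that crossed 8 doses (0, 100, 200 and 300 cGy, then 450, 600, 800 and 1050 cGy) with 6 times: 6, 24, 48, 72, 120 or 168 hr. The sex-by-agent series held 226 mice (111 female and 115 male, 3 to 5 in each of 48 groups) in 3 treatment arms: the neutrophil growth factor GCSF (granulocyte colony-stimulating factor), lipopolysaccharide (LPS, a bacterial wall component) or no treatment, at 0, 200, 300 or 600 cGy and 6 or 24 hr. The short agent series comprised 50 mice in 9 groups of 5 to 6 with the same 3 treatments at 0, 150 or 600 cGy and 6 hr. The 7 day series comprised 18 mice, and 10 mice exposed to 150 cGy and 3 at 0 cGy, all sampled at 168 hr, are used here. The labels give the sex of mice only in the sex-by-agent series, and do not say when the agents were given. RNA came from whole blood after removal of globin transcripts, so fewer cells of a type and less RNA per cell cannot be told apart.

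The proteasome degrades proteins tagged with ubiquitin. Its core is a barrel of 4 stacked rings, the outer ones of alpha subunits and the inner ones of beta subunits, and proteolysis is carried out by Psmb5, Psmb6 and Psmb7. A 19S cap binds the barrel: its ATPases (Psmc1 to Psmc6) unfold the substrate and open the gate, Psmd1 and Psmd2 dock ubiquitin receptors, Psmd4 is itself a ubiquitin receptor, and the lid subunit Psmd14 removes the ubiquitin chain. In blood, lymphocytes replace the 3 proteolytic subunits in part by Psmb9, Psmb10 and Psmb8 (the immunoproteasome), and reticulocytes, the youngest red cells, carry abundant proteasomes while they clear their organelles.

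Of the members, 33 had a mean signal above the median of all genes. Psma8, the alpha subunit known from testis, was dim (mean 4.16 over all mice), so its values lie near background. In untreated mice at 0 cGy all measured B-cell, T-cell, NK-cell, neutrophil, monocyte and platelet markers lay above the median gene, as did 7 of 8 erythroid markers (all but Hba-a1, a transcript that globin reduction removes). Alb and other hepatocyte transcripts were also present in many dose-time arrays, among them those at 300 cGy and 24 hr and at 600 cGy and above at 120 and 168 hr. Single arrays of the sex-by-agent series held them too. The mean of the 35 members in the 0 cGy mice was not the same at each time: it was 8.02 ± 0.16 at 6 hr, 7.92 ± 0.25 at 48 hr, 7.93 ± 0.36 at 72 hr and 8.50 ± 0.11 at 120 hr (SD, n = 5 each). Irradiated mice are therefore compared below only with 0 cGy mice of the same time. The spread of an array, the SD of its 12393 log2 values, moved with the mean of the members from group to group, as the plot of both by dose and time shows. It ranged from 1.59 to 2.23 in single mice of the dose-time series. A wider spread lifts bright genes and lowers dim ones, and most members are bright. Its part in the results was examined only by fits that take the spread as a covariate or force the arrays to 1 distribution (quantile normalisation), given where they change a result.

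**Figure D1:**
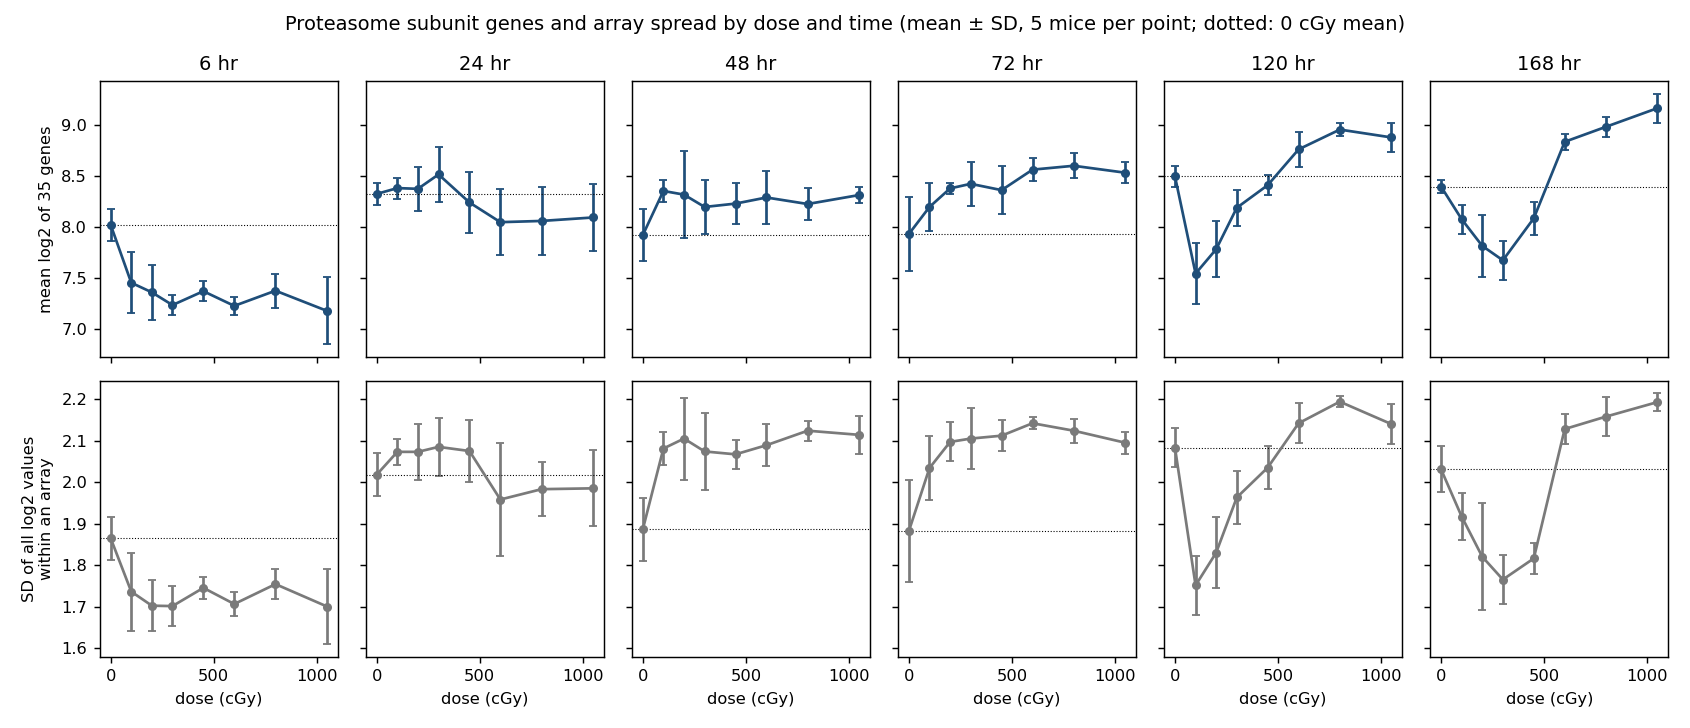
Top, mean log2 signal of the 35 members against dose (cGy) at each time in the dose-time series; bottom, the SD of all log2 values within an array for the same mice. Points are means of 5 mice, bars are SDs and the dotted line is the 0 cGy mean. At 6 hr the member mean is 8.02 at 0 cGy and between 7.18 and 7.45 at every other dose; at 120 hr it is lowest at 100 cGy (7.54) and at 168 hr at 300 cGy (7.67), and it is above 0 cGy from 600 cGy on.

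At 6 hr most subunit genes were lower after every dose. The slope of log2 signal on dose, per 100 cGy, was called (adjusted p below 0.05, limma) for 25 members, all downward, against 18.5% of all genes called down and 16.2% called up. The members' median slope was -0.05, and the median of all genes was 0.00. The fall was already present at 100 cGy, where 22 members were lower than at 0 cGy and 1 (Psma8) was higher, with a median difference of -0.73 (17.4% of all genes were called down and 12.5% up in that comparison). At 1050 cGy 29 members were lower and 1 higher (23.4% and 28.3% of all genes), with a median of -0.97.

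The ATPase gene Psmc2 was the most lowered member at 600 cGy. Its log2 signals in the 5 mice at 0 cGy were 8.09, 8.26, 8.30, 8.40 and 8.63. At 100 cGy they were 6.61, 7.11, 7.45, 7.69 and 7.86, and at 600 cGy they were 6.28, 6.29, 6.74, 7.21 and 7.42. Neither irradiated group overlapped the 0 cGy mice. The difference at 600 cGy was -1.55 (SE 0.23), and the slope was -0.10 with an adjusted p of 1.32e-06. The caspase-like catalytic subunit gene Psmb6 had signals of 7.51, 7.57, 7.74, 8.01 and 8.22 at 0 cGy. At 600 cGy its signals were 6.05, 6.16, 6.26, 6.67 and 6.68, again without overlap. Its difference was -1.44 (SE 0.25; adjusted p of the slope 5.85e-04). The lid genes Psmd6 (-1.43 at 600 cGy) and Psmd14, the deubiquitinase (-1.40), also fell. The trypsin-like subunit gene Psmb7 fell by 1.10 and the chymotrypsin-like subunit gene Psmb5 fell by 0.75.

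By place in the particle, the slope was down for 6 of 8 alpha genes, 6 of 7 beta genes, 5 of 6 ATPase genes, 2 of 3 other base genes, 4 of 8 lid genes and 2 of 3 chaperone genes. No slope was called for 10 members, which does not mean that none of them changed. Among these, Psmb2, Psmd4 and Psmd9 had differences at 600 cGy of 0.04, 0.12 and 0.03. Those of Psmc1, Psma6 and Psmd13 were -1.07, -0.74 and -0.41, and that of Psmd7 was 0.32. Within each of the 5 array runs, which hold 1 mouse of every group, the median slope of the members was below 0, from -0.07 to -0.02. With array spread as a covariate the slope was called down for 17 members. At the same time the array spread went from 1.87 ± 0.05 at 0 cGy to 1.71 ± 0.03 at 600 cGy, the mean of 5 B-cell markers from 10.55 (range 10.24 to 10.72) to 6.21 (5.80 to 6.67), the mean of 6 T-cell markers from 9.08 (8.94 to 9.48) to 7.09 (6.98 to 7.29), and that of 6 neutrophil markers from 9.13 (8.73 to 9.46) to 11.42 (11.14 to 11.57). The part of these cell shifts in the result was not tested.

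At 24 hr the dose slope was still down for most members, but at the lower doses few members differed from 0 cGy. Most of those were higher, at shares near the shares of all genes called higher. The slope was called down for 22 members and up for 1, against 19.8% and 18.9% of all genes. At 100 cGy 0 members were lower and 1 was higher than at 0 cGy (1.16% and 5.6% of all genes; 4 members had an unadjusted p below 0.05, all higher). At 200 cGy Psmb5 (0.66, SE 0.17, adjusted p 0.0033), Psmd11 (0.63) and Psmc3, an ATPase gene (0.52), were higher and 0 members lower (7.48% and 8.28% of all genes). At 300 cGy 5 were higher, Psmb5 (0.79), Psmc1 (0.68), Psmd11 (0.68), Psmc3 (0.51) and Psmd9 (0.34), and Psmd4 (-0.50) was lower (15.8% and 17.9% of all genes). The larger falls at 600 cGy were those of Psmc6, an ATPase gene (-0.83), Psmb1, a beta-ring gene (-0.75), and Psma1 and Psmd14 (both -0.67). Psmc6 had signals of 8.18, 8.22, 8.23, 8.23 and 8.64 at 0 cGy, and of 6.81, 7.29, 7.36, 7.73 and 8.15 at 600 cGy. The groups did not overlap, though the highest irradiated mouse lay close to the control mice (adjusted p of the slope 1.04e-05).

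The member that rose at 24 hr was Psmd11, a lid scaffold subunit. Its slope was 0.03 (adjusted p 0.0337), and at 600 cGy its signals of 8.48, 9.22, 9.26, 9.53 and 9.56 overlapped those of 0 cGy, which were 8.79, 8.98, 8.996, 9.01 and 9.01. Within the 5 array runs the median slope of the members at 24 hr was below 0 in 4 and above 0 in 1, from -0.1106 to 0.0065. The calls at 24 hr were less stable than the others: fits without 1 mouse per group, each of which leaves out a whole array run here, gave 7 to 25 called members. Array spread as a covariate gave 12 (3 up and 9 down), and leaving out arrays with Alb at 10 or more gave 14 (1 up and 13 down). The hepatocyte list ranged from 4.95 to 11.45 in the 0 cGy mice and from 7.20 to 12.93 at 600 cGy. Its part in the result was not tested.

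At 48 and 72 hr the members parted. Psmd11, Psmb5, Psmc1 and Psmc3 had the largest rises at 600 cGy, while Psmb1 and Psmc6 fell. At 48 hr 12 members had a rising and 6 a falling slope (24% and 23.3% of all genes). At 72 hr 22 rose and 5 fell (26.3% and 27.1% of all genes), and the median difference at 600 cGy was 0.61 against -0.10 for all genes. The split at 48 hr depends on scaling: quantile normalisation gave 9 up and 10 down, array spread as a covariate 8 up and 16 down, and centring on array medians 15 up and 5 down. Without arrays with Alb at 10 or more, slopes up and down numbered 4 and 5 at 48 hr, against 18 and 4 at 72 hr.

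Psmd11 rose most at both times. Its signals at 48 hr were 8.66, 8.75, 8.81, 9.05 and 9.33 at 0 cGy. They were 9.25, 9.69, 9.84, 9.93 and 10.08 at 100 cGy, where the lowest mouse overlapped the controls. At 600 cGy they were 10.41, 10.49, 10.61, 10.85 and 10.92, clear of both. The difference at 600 cGy was 1.74 (SE 0.18) at 48 hr and 2.03 (SE 0.18) at 72 hr, with adjusted p-values of the slopes of 2.49e-17 and 2.22e-31.

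Psmb5 followed, with 1.63 at 48 hr and 1.87 at 72 hr. At 72 hr its signals were 7.57, 8.14, 8.16, 8.36 and 8.57 at 0 cGy. All 5 mice at 100 cGy (8.64, 8.74, 9.03, 9.35 and 9.58) and all 5 at 600 cGy (9.97, 9.99, 10.01, 10.03 and 10.16) were higher. The SD was 0.08 at 600 cGy and 0.37 at 0 cGy. The SE of the difference was 0.17 and the adjusted p of the slope 3.43e-20. The ATPase genes Psmc1 (1.37 and 1.81) and Psmc3 (1.23 and 1.65) were next at both times.

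The beta-ring gene Psmb1 went the other way. At 48 hr its signals were 9.01, 9.10, 9.12, 9.50 and 9.65 at 0 cGy and 8.22, 8.26, 8.30, 8.55 and 8.87 at 600 cGy. At 72 hr they were 8.84, 9.34, 9.37, 9.57 and 9.70 at 0 cGy and 8.28, 8.46, 8.47, 8.49 and 8.52 at 600 cGy. The groups did not overlap at either time. Its differences were -0.84 and -0.92 (SE 0.20), with adjusted p-values of the slopes of 6.89e-13 and 7.69e-11. The other members with a falling slope at both times were Psmc6 (-0.67 and -0.39), Psmd7, a lid subunit (-0.43 and -0.58), and the chaperone Psmd5 (-0.39 and -0.34). A falling slope at both times was thus called for 4 of the 35 members, and for 19% of all genes (2360 of 12393), so such falls were not particular to the members. Psmb1 and Psmb5 encode neighbours in the same ring, and Psmc6 and Psmc1 belong to the same ATPase ring, so within a ring the transcripts of single subunits moved apart.

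**Figure D2:**
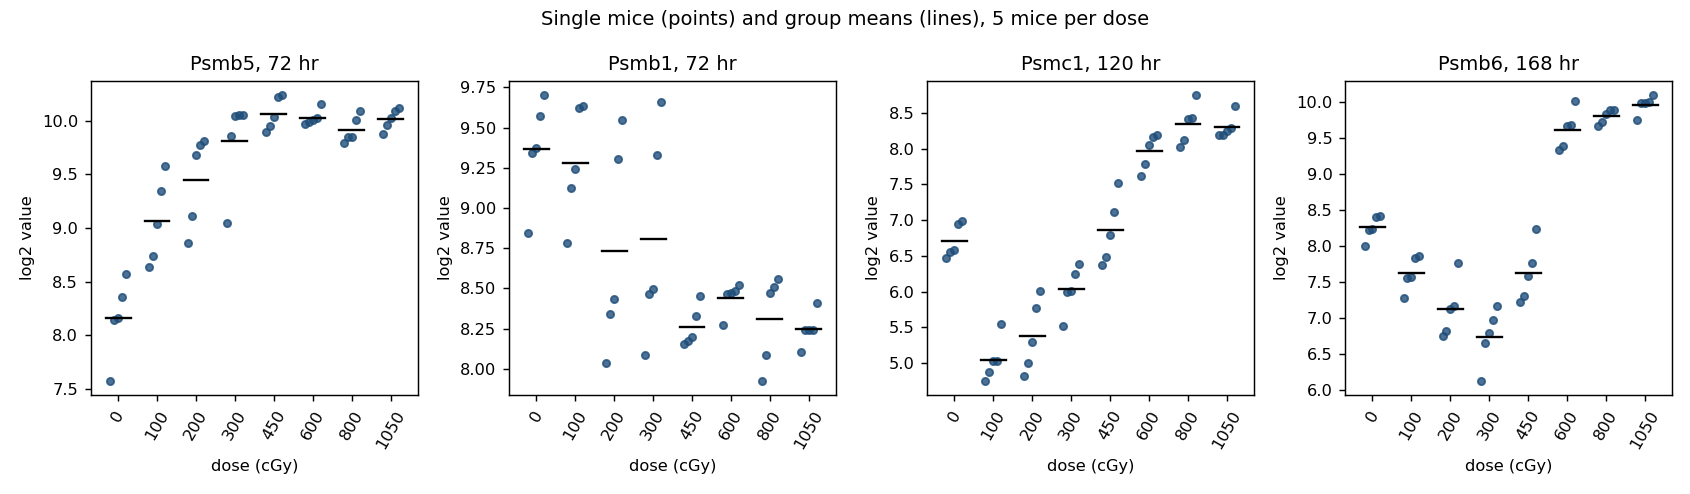
Log2 signal of single mice (points) and group means (lines) by dose in cGy, 5 mice per dose: Psmb5 and Psmb1 at 72 hr, Psmc1 at 120 hr and Psmb6 at 168 hr. Psmb5 climbs from a mean of 8.16 to 10.03 at 600 cGy while Psmb1 drops from 9.37 to 8.44, and Psmc1 and Psmb6 dip at low dose (5.05 at 100 cGy and 6.74 at 300 cGy) and rise at high dose.

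At these times the erythroid list (8 markers) went from 11.37 (range 11.21 to 11.54) to 8.20 (7.56 to 8.53) between 0 and 600 cGy at 48 hr, and from 11.45 (11.25 to 11.65) to 7.23 (6.58 to 8.45) at 72 hr. The platelet list (6 markers) went from 10.55 to 12.41 and from 10.03 to 12.65. Array spread went from 1.89 to 2.09 at 48 hr and from 1.88 to 2.14 at 72 hr. The part of these shifts in the members' changes was not tested.

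The promoter stretches of the 3 members with the largest rise at 72 hr are printed to show which of the motifs searched each holds. Each is the 100 bases before the transcript start in RefSeq (GRCm38.p6), 5′ to 3′ on the gene's strand, with matches to the motifs searched in capitals. Psmb5 lies on the minus strand at chr14:54617996-54618095, Psmd11 on the plus strand at chr11:80428515-80428614 and Psmc1 on the plus strand at chr12:100110102-100110201.
Psmb5: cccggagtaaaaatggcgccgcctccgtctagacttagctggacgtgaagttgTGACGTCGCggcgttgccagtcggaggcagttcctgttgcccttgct
Psmd11: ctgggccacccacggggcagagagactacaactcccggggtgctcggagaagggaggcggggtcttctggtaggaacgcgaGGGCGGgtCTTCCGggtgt
Psmc1: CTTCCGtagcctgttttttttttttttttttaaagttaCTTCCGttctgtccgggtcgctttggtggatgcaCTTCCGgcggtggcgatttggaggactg

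In the Psmb5 stretch the capitals mark an antioxidant response element (TGACNNNGC), the kind of site that Nfe2l1 and Nfe2l2 bind. In Psmd11 they mark a GC box (GGGCGG) and an ETS core (CGGAAG, here on the other strand), and in Psmc1 they mark 3 ETS cores. Of the 35 members, 28 had an entry in the promoter table. Over the 250 bases before the start and on both strands, 15 of the 28 (53.6%) held an ETS core, against 15.3% of all 27025 genes in the table. A GC box was held by 17 members (60.7%, against 35.4% of all genes), a CCAAT box by 11 (39.3%, against 37.5%), an antioxidant response element by 5 (17.9%, against 11.5%) and an E box (CACGTG) by 2 (7.1%, against 6.9%). The longer form TGACTCAGC was found in 0 members and in 0.4% of all genes. The motifs were chosen with the values known, and a match of letters does not show a bound site. The 27025 genes are not limited to those measured here or to genes as bright as the members. Whether an excess is particular to proteasome genes was therefore not tested.

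At 120 hr the response to dose was not monotone. Low doses lowered most members and high doses raised many. At 100 cGy 28 members were lower and 1 higher than at 0 cGy (31.7% and 39.5% of all genes), with a median difference of -1.09. At 300 cGy 16 were lower and 4 higher (23.2% and 20.2% of all genes). At 600 cGy 15 were higher and 5 lower (23.6% and 22.6%), and at 800 cGy 19 were higher and 5 lower (26.2% and 28.5%), with a median of 0.43. Over all doses the slope was up for 29 members and down for 4 (35.4% and 47% of all genes).

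Psmc1 shows both parts of this response. Its signals were 6.47, 6.56, 6.58, 6.94 and 6.99 at 0 cGy. At 100 cGy they were 4.75, 4.88, 5.03, 5.03 and 5.55, all below the controls. At 600 cGy they were 7.62, 7.78, 8.05, 8.17 and 8.19, and at 1050 cGy 8.19, 8.19, 8.25, 8.28 and 8.60, all above them. The differences from 0 cGy were -1.66, 1.25 and 1.59 (SE 0.27 each), and the slope was 0.30 (adjusted p 1.87e-33). Psmb6 (-1.84) and Psmb7 (-1.85) fell further at 100 cGy. At 600 cGy Psmd11 (1.42), Psmb5 (1.38) and Psmc5 (1.20) were raised like Psmc1. Psmb1 was 1.51 below 0 cGy at 100 cGy and 1.31 below it at 600 cGy, so it was low at both doses. The 4 members with a falling slope over all doses were Psma8, Psmb1, Psmd4 and Psmd7. Psma8 read 0.82 at 100 cGy and -0.10 at 1050 cGy, and Psmd4 read 0.25 and -0.38. Of these 4 values, those of Psma8 at 100 cGy and Psmd4 at 1050 cGy passed the test (adjusted p 2.49e-06 and 0.032).

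At 168 hr most members were lower at 200 and 300 cGy, and many at 450 cGy. At 200 cGy 25 members were lower and 3 higher (29% and 29.8% of all genes). At 450 cGy 15 were lower and 6 higher (30.3% and 37.9% of all genes), with a median of -0.40. At 300 cGy 25 members were lower and 4 higher (32% and 40.7% of all genes), with a median of -0.86. At 100 cGy 5 were lower and 2 higher (9.96% and 5% of all genes). At 1050 cGy 25 were higher and 2 lower, Psmd4 and Psmd7 (26.7% and 33.3% of all genes), with a median of 0.92. The slope was up for 29 and down for 3 (35.5% and 46.6% of all genes). Psmb6 had signals of 8.01, 8.22, 8.23, 8.40 and 8.42 at 0 cGy. At 300 cGy they were 6.13, 6.66, 6.79, 6.97 and 7.16. At 600 cGy they were 9.33, 9.39, 9.66, 9.68 and 10.00, and at 1050 cGy 9.75, 9.98, 9.98, 9.99 and 10.09. The 0 cGy mice overlapped neither the lower nor the higher groups. The differences at 300, 600 and 1050 cGy were -1.52, 1.35 and 1.70 (SE 0.25 each), with adjusted p-values of 7.81e-08, 1.98e-06 and 1.63e-09. Psmc1 (1.42), Psmb5 (1.21) and Psmd1, the large base scaffold (1.12), were also higher at 600 cGy. Psmd4, the ubiquitin receptor, mirrored them, with 0.76 at 300 cGy and -0.80 at 1050 cGy (SE 0.16; adjusted p 9.35e-06 and 2.93e-06).

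At 120 hr the spread and the marker lists moved with these changes. The doses of 0, 100 and 600 cGy had array spreads of 2.08, 1.75 and 2.14. The erythroid list was 11.01 (range 10.71 to 11.30) at 0 cGy, 11.74 (11.61 to 11.97) at 100 cGy and 6.29 (6.11 to 6.45) at 1050 cGy. The hepatocyte list (10 markers, among them Alb) was 5.34 (4.75 to 7.13) at 0 cGy, 5.54 (5.07 to 5.81) at 100 cGy and 12.69 (10.83 to 13.75) at 600 cGy. The values at 168 hr ran alike, with spreads of 2.03, 1.76 and 2.19 for the doses of 0, 300 and 1050 cGy. The erythroid list there was 11.30, 12.02 and 6.96, and the hepatocyte list 5.40 (4.88 to 5.86), 6.34 (5.51 to 8.44) and 13.51 (12.45 to 14.19). When arrays with Alb at 10 or more were left out, which removes most high doses, members with a rising and a falling slope numbered 5 and 11 at 120 hr, against 3 and 26 at 168 hr. With array spread as a covariate these numbers were 17 and 11 at 120 hr and 18 and 7 at 168 hr. The fit without arrays high in Alb keeps mainly low doses, at which most members lay below 0 cGy. Its falling slopes therefore cannot show what hepatocyte RNA contributes. The arrays at high dose also carry hepatocyte transcripts, so dose and hepatocyte RNA cannot be told apart at 120 and 168 hr.

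The slope differed between the 6 times for all 35 members (limma moderated F test, largest adjusted p 1.02e-04), as it did for 92.3% of all genes. A falling slope at 6 hr with a rising slope at both 120 and 168 hr was called for 22 members, and for 7.53% of all genes, among the members Psmb5, Psmb6, Psmb7, Psmc2 to Psmc5, Psmd11 and Psmd14. A rising slope at each of 48, 72, 120 and 168 hr was called for 12 members, and for 13.7% of all genes. The members were Psmb5, Psmc1, Psmc2, Psmc3, Psmc4, Psmc5, Psmd2, Psmd3, Psmd8, Psmd9, Psmd11 and Psmd13. These are 5 of the 6 ATPases, 1 of the 7 beta subunits and 0 of the 8 alpha subunits, and besides them the lid genes Psmd3, Psmd8, Psmd11 and Psmd13, the base gene Psmd2 and the chaperone Psmd9. A rising slope does not mean a level above 0 cGy: at 600 cGy Psmd13 read -0.27 at 120 hr and -0.06 at 168 hr. The alpha genes had the smaller median slope at 72 hr (0.01, range -0.02 to 0.07, 3 of 8 up) and the ATPases the larger (0.12, range -0.05 to 0.16, 5 of 6 up and Psmc6 down). Whether the roles differ was not tested.

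**Figure D3:**
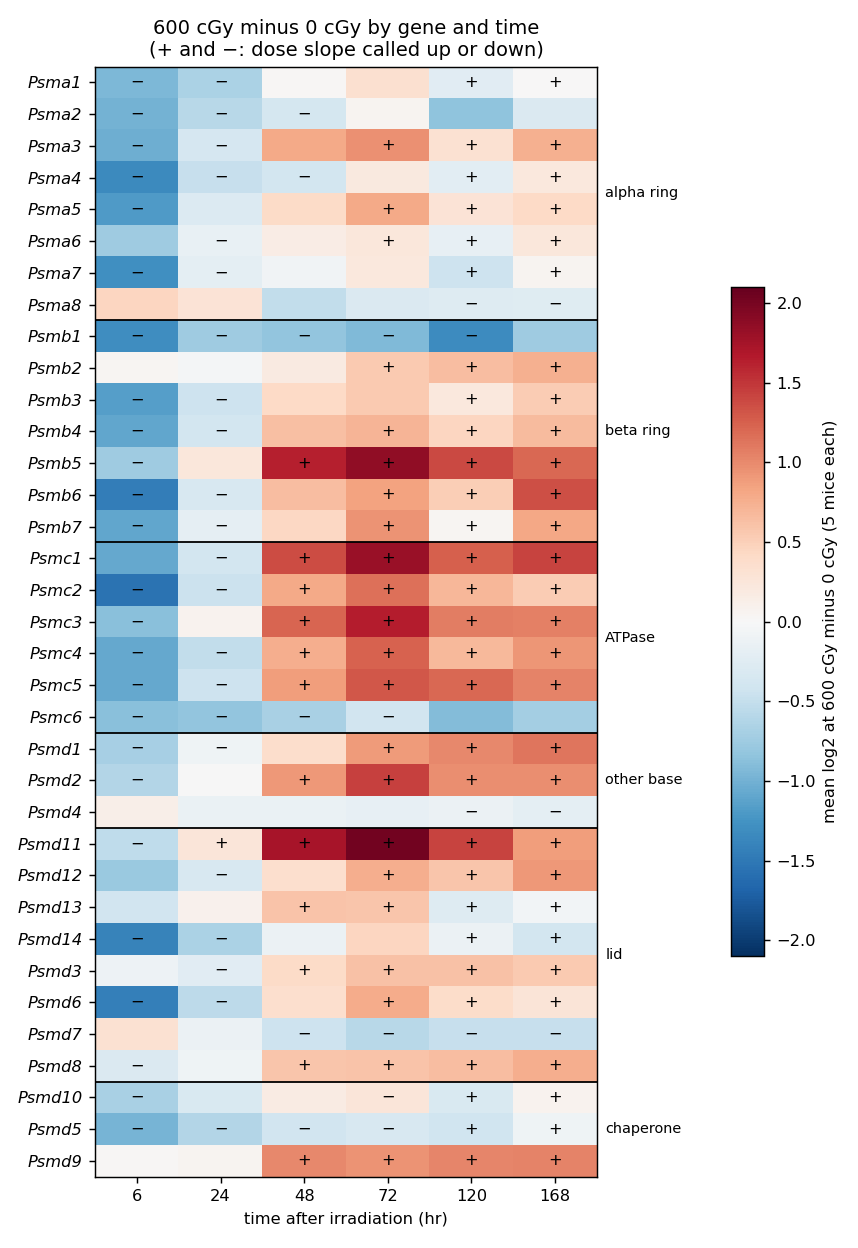
Mean log2 at 600 cGy minus 0 cGy (colour, 5 mice each) for the 35 members, by role, at 6 to 168 hr; + and − mark a dose slope called up or down over all 8 doses. The 6 hr column is mostly lower. In the 72 hr column Psmd11 (2.03), Psmb5 (1.87) and Psmc1 (1.81) are highest, and Psmb1, Psmc6 and Psmd7 are lower in each column from 48 to 168 hr.

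Several members have other probe sets, and for a few the probe set matters. Psmd7 was represented by a probe set with a mean of 5.54 that read -0.58 at 600 cGy and 72 hr, while another with a mean of 5.25 read 1.51 and was higher by 1.34 at 120 hr and 1.56 at 168 hr, like most lid genes. Another one, with a mean of 4.77, read -0.49 at 72 hr. The fall of Psmd7 therefore does not hold for all its probe sets, and their mean had a rising slope at 72, 120 and 168 hr. For Psmb3 the probe set used read 0.54 at 72 hr and the other 1.90. For Psmc6 both brighter probe sets were lower at 72 hr (-0.39 and -1.01) and at 120 hr (-0.92 and -2.11). For Psmd11 the 3 next brightest probe sets read 2.92, 0.43 and 2.71 at 72 hr, and the 2 dimmest read -0.02 and -0.10. For Psmb1 all 3 read lower (-0.92, -0.66 and -0.29).

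The 7 day series gave a second view of a low dose at 168 hr, in other mice. At 150 cGy 29 members were lower and 2 higher than at 0 cGy (33.3% and 33.8% of all genes), with a median difference of -0.96 against 0.09 for all genes. Psma3, an alpha subunit gene, had signals of 10.35, 10.37 and 10.54 in the 3 mice at 0 cGy. In the 10 mice at 150 cGy its lowest, median and highest signals were 8.09, 8.84 and 9.38, all below the controls. The difference was -1.64 (SE 0.22, adjusted p 2.14e-05). Psmb6 (-1.56), Psmb7 (-1.43) and Psma2 (-1.40) followed, and all 7 beta and all 6 ATPase genes were lower. Psma8 (0.74) and Psmd4 (0.55) were the 2 members that rose, as at 300 cGy in the dose-time series.

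Array spread was 2.21 ± 0.02 in the 3 control mice and 1.90 ± 0.14 in the 10 irradiated mice of that series. The erythroid list was 10.75 (range 10.56 to 11.01) and 11.88 (11.75 to 12.07), and the B-cell list 11.38 (11.23 to 11.56) and 9.36 (8.72 to 9.79). With array spread as a covariate 2 members rose and 5 fell, and Psma8 turned to -0.17. Quantile normalisation gave 2 up and 17 down. The hepatocyte list was 5.02 (4.52 to 5.31) and 6.80 (5.34 to 9.18).

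**Figure D4:**
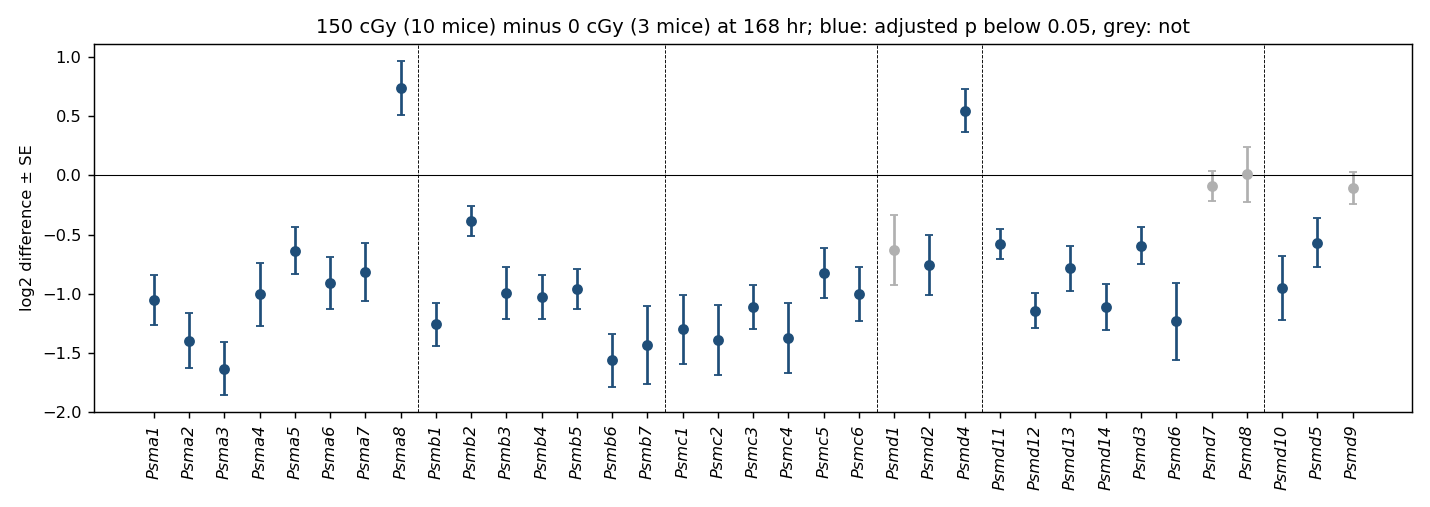
Log2 difference ± SE of each member between 10 mice at 150 cGy and 3 mice at 0 cGy, 168 hr after exposure, grouped by role (dashed lines) from alpha subunits at left to chaperones at right; blue points had an adjusted p below 0.05. Of the 31 blue points 29 lie below 0, down to -1.64 for Psma3, and Psma8 and Psmd4 lie above.

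In the sex-by-agent series most called dose slopes of the members were again downward at 6 and 24 hr. Without an agent 7 members fell and 0 rose at 6 hr (12.4% and 7.55% of all genes) and 19 fell and 1 rose at 24 hr (22.9% and 18.3%). In mice given GCSF 29 fell and 1 rose at 6 hr (23.9% and 28.7%) and 11 fell and 0 rose at 24 hr (17.4% and 13.2%). In mice given LPS 28 fell and 0 rose at 6 hr (15.8% and 16.4%), and 21 fell and 0 rose at 24 hr (9.8% and 3.25%). Array spread as a covariate left 17 falls with LPS at 6 hr and gave 21 falls and 1 rise with GCSF at 24 hr. The member called upward without an agent at 24 hr was Psmd11, whose slope was 0.09 (SE 0.02, adjusted p 1.45e-05), the same member as in the dose-time series. The larger falls at 6 hr were those of Psmc5 (-0.11), Psmd2 (-0.11) and Psmc4 (-0.10) without an agent, of Psmd6 (-0.21), Psmc4 (-0.20) and Psmc5 (-0.20) with GCSF, and of Psmc4 (-0.22), Psmd6 (-0.18) and Psmd2 (-0.18) with LPS. At 24 hr without an agent they were those of Psmc6 and Psmb1 (both -0.15), which also led in the dose-time series.

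Marker lists, whose levels were not tested, moved with dose in this series too. Without an agent the B-cell list went from 10.16 (range 8.55 to 10.78) at 0 cGy to 7.33 (5.81 to 9.46) at 600 cGy at 6 hr, and from 10.79 (10.42 to 11.14) to 7.86 (6.41 to 9.19) at 24 hr. At 24 hr the T-cell list went from 9.38 (8.77 to 9.95) to 7.11 (6.75 to 7.86), and the platelet list from 10.17 (9.53 to 10.76) to 11.77 (11.58 to 11.98). With GCSF at 6 hr the B-cell list went from 10.48 (9.73 to 11.41) to 6.63 (5.79 to 7.38) and the neutrophil list from 10.65 (9.12 to 11.76) to 12.22 (11.52 to 12.84). With LPS at 24 hr the B-cell list went from 8.15 (7.32 to 9.598) to 5.86 (5.22 to 6.75). Array spread without an agent was 2.03 and 1.96 at 6 hr and 2.04 at both doses at 24 hr, and with LPS at 6 hr it was 1.89 and 1.77. The hepatocyte list varied widely between mice. Without an agent it ranged from 4.66 to 12.01 at 0 cGy and from 5.20 to 10.86 at 600 cGy at 6 hr. At 24 hr it ranged from 4.92 to 11.11 at 0 cGy, from 4.72 to 13.74 at 200 cGy and from 4.98 to 10.84 at 600 cGy. Fits without arrays with Alb at 10 or more were made in the dose-time series only. The part of these shifts and of hepatocyte RNA in the members' slopes was not tested.

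The counts in this series depend on single mice. Fits without 1 mouse per group gave 2 to 5 called members without an agent at 6 hr, 12 to 21 at 24 hr, 5 to 12 with GCSF at 24 hr, 18 to 28 with LPS at 6 hr and 3 to 27 with LPS at 24 hr. Quantile normalisation raised the count with GCSF at 24 hr to 20. Nearly all mice of this series (217 of 226) belonged to the same array run, and within that run the counts were the same except for GCSF at 24 hr (10).

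Few members had a slope that differed between an agent and no agent. The median slope of the members at 6 hr was -0.05 without an agent and -0.11 both with GCSF and with LPS. The slope with GCSF minus that without differed for 0 members at 6 and at 24 hr, with 5 and 1 members at an unadjusted p below 0.05 (0.0161% and 0.00807% of all genes were called). The slope with LPS minus that without differed for 0 members at 6 hr (8 at an unadjusted p below 0.05; 6.45% of all genes called). Quantile normalisation gave 4 there, array spread as a covariate 2, and a fit on the compared groups alone 3. At 24 hr it differed for 3 members (16.5% of all genes): Psmd11 (-0.16, SE 0.03, adjusted p 8.80e-07), Psmc3 (-0.12) and Psmd7 (0.09). Psmd11 without an agent had a mean signal of 9.06 ± 0.15 at 0 cGy (n = 10), 9.67 ± 0.19 at 200 cGy (n = 8) and 9.71 ± 0.22 at 600 cGy (n = 10). With LPS it was 9.23 ± 0.29 (n = 9), 8.95 ± 0.31 (n = 10) and 8.75 ± 0.49 (n = 10). With LPS its slope was -0.07 (adjusted p 0.0058), against 0.09 without an agent.

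In unirradiated mice LPS changed a few members. At 6 hr 4 fell and 1 rose (20.5% and 14.8% of all genes): Psmd5 (-0.78), Psmb3 (-0.66), Psma1 (-0.57) and Psmb1 (-0.54) fell and Psma8 (0.47) rose. In the short agent series, which used other mice, 3 fell and 2 rose under the same comparison (16% and 10.2% of all genes): Psmb1 (-0.58), Psmb3 (-0.54) and Psmd5 (-0.45) fell, and Psma5 (0.63) and Psmd11 (0.31) rose. Psmb1, Psmb3 and Psmd5 were thus called lower in both series, though in each a smaller share of members than of all genes was called lower. The share of all genes lowered in both series was not counted. At 6 hr in the sex-by-agent series the B-cell list was 10.16 (range 8.55 to 10.78) without an agent and 8.28 (7.37 to 9.50) with LPS. The T-cell list was 8.77 (7.60 to 9.49) and 6.82 (6.27 to 7.26), the monocyte list 10.02 (9.07 to 10.95) and 8.35 (6.94 to 9.79), and array spread 2.03 and 1.89. In the short agent series the monocyte list was 9.70 (9.42 to 10.11) and 7.81 (7.30 to 8.34), while the B-cell list was 10.34 (7.48 to 11.11) and 9.95 (9.58 to 10.30). The part of these shifts was not tested. The upward calls depend on scaling: in the short agent series quantile normalisation gave 6 up and 3 down and centring on array medians 5 up and 3 down. In the sex-by-agent series quantile normalisation and the mean of probe sets each gave 4 up and 3 down. Fits without 1 mouse per group gave 2 to 6 calls in the sex-by-agent series and 3 to 7 in the short agent series.

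In the 24 hr groups at 0 cGy 8 members were higher with LPS and 0 lower (9.2% and 12.7% of all genes). A further 2 were lower at an unadjusted p below 0.05. The higher members were Psma5 (0.70), Psma6 (0.67), Psmd14 (0.60), Psma2 (0.55), Psmd12 (0.54), Psmb2 (0.47), Psmd9 (0.41) and Psmd3 (0.38). Psma5 was 9.66 ± 0.10 without an agent (n = 10, range 9.50 to 9.79) and 10.39 ± 0.24 with LPS (n = 9, range 10.01 to 10.67), so the groups did not overlap. In the same mice the B-cell list was 10.79 (range 10.42 to 11.14) without an agent and 8.15 (7.32 to 9.598) with LPS, the T-cell list 9.38 (8.77 to 9.95) and 7.61 (7.10 to 8.42), and the neutrophil list 9.52 (9.13 to 10.11) and 11.70 (10.58 to 12.50). None of these lists overlapped between the groups, and their part in the result was not tested. Quantile normalisation gave 14 higher and 1 lower, array spread as a covariate 28 and 2, a fit on the compared groups alone 18 and 1, and leaving out 1 mouse of every group 3 to 9 calls in all. GCSF changed 0 members at 0 cGy at either time in the sex-by-agent series (limma; 1 member at 6 hr and 7 at 24 hr had an unadjusted p below 0.05; 0% and 0.549% of all genes were called). A fit on the compared groups alone gave 18 calls at 24 hr, 17 of them lower. In the short agent series GCSF also changed 0 members at 6 hr (6 at an unadjusted p below 0.05, 0.549% of all genes called; 2 with array spread as a covariate).

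Between untreated female and male mice at 0 cGy 0 members differed (limma; 5 had an unadjusted p below 0.05; 0.815% of all genes were called). The median female minus male difference was 0.24, 30 of the 35 values were above 0, and a fit on those groups alone called 11 members, all higher in females. In the short agent series 600 cGy changed 0 members without an agent at 6 hr (1 at an unadjusted p below 0.05; 7.38% of all genes called), with a median difference of 0.02. Array spread as a covariate gave 6, all lower. In the dose-time series the same dose and time gave 28 lower and 2 higher members (23.2% and 25.8% of all genes; median -0.95), so these series did not match at this dose. With GCSF 11 fell and 0 rose (14.1% and 10.9% of all genes), led by Psmc4 (-0.88), Psmc2 (-0.73), Psmb3 (-0.65) and Psmb6 (-0.60). With LPS 5 fell and 0 rose (9.55% and 6.46% of all genes): Psmb3 (-0.55), Psmd3 (-0.50), Psma5 (-0.46), Psmd12 (-0.43) and Psmd5 (-0.40). Leaving out 1 mouse of every group gave 6 to 19 and 1 to 11 calls in these, and array spread as a covariate 17 and 11, all lower. The array spread of the short agent series was 2.07 at 0 cGy and 2.12 at 600 cGy without an agent, where that of the dose-time series was 1.87 and 1.71.

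The catalytic genes were also set against their immunoproteasome counterparts within each mouse. This cancels a shift that both signals share, but not a change in the mix of cells. The part of the cell shifts given above in these differences was not tested. The difference of log2 signals compares 2 probe sets, so its level has no meaning by itself and only its change with dose is read. Psmb8 minus Psmb5 did not change with dose at 6 hr (slope 0.01, permutation test, adjusted p 0.328 over 18 tests). It fell at every later time, with slopes of -0.09 at 24 hr (adjusted p 8.40e-04), -0.12 at 48 hr, -0.17 at 72 hr, -0.19 at 120 hr and -0.17 at 168 hr. The raw p of the last 4 was 1e-05, the smallest that 100000 permutations can give (adjusted p 2.25e-05). At 72 hr the difference was 0.81 ± 0.13 at 0 cGy (range 0.63 to 0.98) and -0.56 ± 0.14 at 600 cGy (-0.80 to -0.44; SD, n = 5 each), without overlap.

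Psmb9 minus Psmb6 rose at 6 hr, from 1.27 ± 0.20 (range 1.05 to 1.55) at 0 cGy to 2.11 ± 0.26 (1.79 to 2.48) at 600 cGy, with a slope of 0.09 (permutation test, adjusted p 2.25e-05). It had no called slope at 24 hr (0.00, adjusted p 0.875) or 48 hr (-0.02, adjusted p 0.385). It fell at 72, 120 and 168 hr, with slopes of -0.11, -0.19 and -0.26 (adjusted p 2.25e-05 each). At 168 hr it was 1.22 ± 0.23 at 0 cGy and -0.44 ± 0.45 at 600 cGy. Without the arrays with Alb at 10 or more the slope at 168 hr was 0.04. Psmb10 minus Psmb7 had a called slope at 48 hr alone (0.06, adjusted p 0.0243), with slopes from -0.02 to 0.04 at the other times (adjusted p 0.138 to 0.500). That call ended in 2 of the 5 fits that left out 1 mouse of every group (slopes 0.04 to 0.07) and without arrays with Alb at 10 or more (0.01).

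Of 12 comparisons of these differences between agents in unirradiated mice, 2 passed an exact permutation test adjusted over the 12. Psmb9 minus Psmb6 was higher with LPS in the 6 hr groups, at 1.60 ± 0.37 against 0.92 ± 0.25 (SD, n = 8 and 10, adjusted p 0.0027). Psmb8 minus Psmb5 was lower with GCSF in the 24 hr groups, at 0.83 ± 0.14 against 1.11 ± 0.16 (n = 10 each, adjusted p 0.0029). The same difference with LPS in the 24 hr groups was 0.69 ± 0.47 against 1.11 ± 0.16, which did not pass (n = 9 and 10, exact permutation test, adjusted p 0.0722). Marker lists differed between these groups too. At 24 hr the neutrophil list was 9.52 (range 9.13 to 10.11) without an agent and 10.44 (10.15 to 10.82) with GCSF. The B-cell list was 10.79 (10.42 to 11.14) and 10.28 (9.91 to 10.71). The part of such shifts was not tested.

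**Figure D5:**
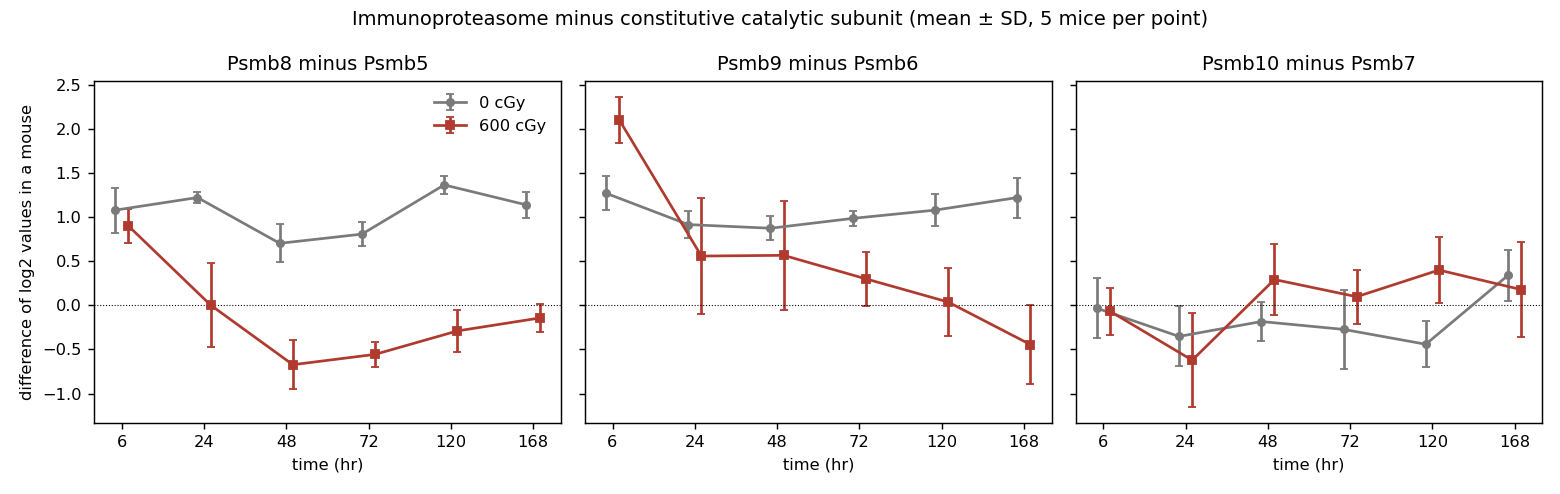
Difference of log2 signals between an immunoproteasome subunit and the constitutive subunit it replaces, in the same mouse, at 0 cGy (grey) and 600 cGy (red) by time in hr; points are means of 5 mice and bars SDs. Psmb8 minus Psmb5 is lower at 600 cGy from 24 hr on, Psmb9 minus Psmb6 is higher at 6 hr (2.11 against 1.27) and lower from 72 hr on, and the ranges of Psmb10 minus Psmb7 overlap at every time except 120 hr.

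Other genes of the pathway were read from a list of which 25 genes were measured. In the dose-time series 10 fell and 2 rose at 6 hr (18.5% and 16.2% of all genes), and 14 fell and 1 rose at 24 hr (19.8% and 18.9%). At 48 hr 7 rose and 5 fell, which is near the shares of all genes (24% and 23.3%). Later counts were 13 up and 6 down at 72 hr (26.3% and 27.1%), 16 up and 5 down at 120 hr (35.4% and 47%) and 17 up and 4 down at 168 hr (35.5% and 46.6%). Pomp, the chaperone of core assembly, had differences at 600 cGy of -0.85 at 6 hr and 0.85, 1.05, 0.65 and 0.81 at 48, 72, 120 and 168 hr, with a called slope at each of these times. Nfe2l1, the transcription factor that drives proteasome genes, fell at 6 hr (-0.29) and rose at 48, 72, 120 and 168 hr (0.36, 0.63, 0.67 and 0.47). Leaving out arrays with Alb at 10 or more, which leaves few high doses, turned slopes of both genes. Nfe2l1 then had -0.03 at 120 hr and -0.12 at 168 hr, and Pomp -0.32 at 168 hr. At 48 hr the slope of Pomp was -0.0017 with quantile normalisation and -0.0057 with array spread as a covariate. Whether Nfe2l1 has a part in the members' changes was not tested. The 11S activator Psme1 fell at 6 and 24 hr (-0.94 and -0.56). Its slope was not called at 48 and 72 hr (adjusted p 0.305 and 0.142), although its differences at 600 cGy were 0.60 and 0.66. The unfoldase Vcp (1.07 and 1.56 at 48 and 72 hr) and its partner Nploc4 (1.47 and 1.46) rose. Psme2 was not analysed here.

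The largest falls in the list were those of Psme3, the nuclear 11S activator (-3.52, -4.66, -3.28 and -2.75 at 48, 72, 120 and 168 hr), and Psmf1, an inhibitor of the proteasome (-1.85, -1.93, -0.81 and -0.62). Their slopes had adjusted p-values of 1.17e-21 and 2.90e-12 at 48 hr and of 2.59e-38 and 4.05e-24 at 72 hr. In the same groups the erythroid list was lower, as given above, and its part in these values was not tested. The fall of Psme3 and Psmf1 was opposite in sign to the changes of Psmb5 and of every ATPase except Psmc6 at 48 and 72 hr.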

How the data were processed

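Whole-blood RNA of 534 mice was measured on 536 arrays, since 2 mice had a repeat scan, which was averaged with the first. The authors deposited log2 expression values per probe set, made by RMA in the affy package per the submitters' processing notes. Versions, and whether the array batches were normalised together, are not given in the sources used here, so tests were run within each series of mice. Values ran from 2.17 to 14.85, and array medians from 5.61 to 5.93. Precision is limited by how many arrays each group has. Of 22690 probe sets, 64 controls, 1555 without a symbol and 691 with several symbols were left out. For each of 12393 genes the probe set with the highest mean was kept.

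A group-means model was fitted to all genes of each series in limma 3.58.1 (R 4.3.3), with contrasts for the slope on dose and for single differences, Benjamini-Hochberg adjustment over all 12393 genes and a threshold of 0.05. Pairs of subunits were tested by permutation in Python 3.11.15 with SciPy 1.17.1, using 100000 resamples of dose within a time, or exactly between agents. Figures were drawn with matplotlib 3.10.9. The fits were tested on simulated data. Array run was read from the title codes of the samples, which do not explain them. Same-numbered mice of different groups did not deviate together (mean correlation 0.017 in the dose-time, 0.036 in the sex-by-agent, 0.062 in the short agent and -0.134 in the 7 day series), so numbers do not pair mice. The labels do not give litters or cages, so the p-values measure the spread between these mice.

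Members and lists were chosen with earlier results of these data known. All members could be named. For each comparison the text gives up to 4 called members with the largest rise and up to 4 with the largest fall (by the difference at 600 cGy in the dose-time series), the catalytic subunits and their immunoproteasome counterparts, up to 3 other pathway genes in each direction, and Psme1, Nfe2l1 and Pomp. Alternatives were quantile normalisation, centring on array medians, the mean of probe sets, leaving out dim genes (below the 30th percentile), arrays with Alb at 10 or more, or 1 mouse of every group, a fit on the compared groups alone, a block for array run or mouse number, a trended prior and, chosen after seeing the data, array spread as a covariate. Promoter sequences came from RefSeq (GRCm38.p6), and gene symbols from the platform annotation.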

Additional observations from a re-analysis of the deposited data

Results flagged for a closer look

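In 4 of 28 groups of 5 mice examined, 1 mouse stood apart from the rest by Dixon's test at the 95% level, which chance gives in about 1 of 20 groups. At 24 hr and 0 cGy 1 mouse had a Psmc6 signal of 8.636, against 8.178 to 8.231 in the others, and 1 had a Psmd11 signal of 8.791, against 8.983 to 9.012. At 600 cGy and 72 hr the lowest Psmb1 signal was 8.275, against 8.462 to 8.522. At 1050 cGy and 120 hr the highest Psmc1 signal was 8.596, against 8.187 to 8.282. In the groups compared in the report for Psmb1 at 72 hr and Psmc1 at 120 hr, the mouse that stood apart lay farther from the 0 cGy mice than the rest of its group.

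The slope on dose differed between times for all 35 members by a moderated F test in limma, as for 92.3% of all genes. The slope at 24 hr differed between mice given LPS and mice given no agent for Psmd11 (-0.1641), Psmc3 (-0.1208) and Psmd7 (0.0885), each tested as an interaction in limma, with adjusted p-values of 8.80e-07, 0.0067 and 0.0213. Psmd7 reads 0.02 (adjusted p 0.5795) with the mean of its probe sets.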

How the results depend on the processing

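Of 653 values of the comparisons under an alternative, 591 stayed on their side of the threshold or within 1.5 times the count, and of 2137 values of single genes 1913 did. An array-run block, a trended prior and leaving out dim genes moved no count of members by more than 1.5 times.

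Without arrays with Alb at 10 or more, called members numbered 16 (for 33) at 120 hr, 14 (for 23) at 24 hr and 9 (for 18) at 48 hr, Psmb10 minus Psmb7 at 48 hr had a slope of 0.0059, and Psmb9 minus Psmb6 at 168 hr turned to 0.0369. At 120 hr the slope turned for Nfe2l1 (-0.0306), Psma8 (0.1249), Psmb10 (-0.1825), Psmb6 (-0.1481), Psmb7 (-0.1313), Psmb8 (-0.3181), Psmb9 (-0.3098), Psmc1 (-0.1792), Psmc5 (-0.0123), Psmd4 (0.3104) and Psme1 (-0.1713). At 168 hr it turned for Nfe2l1 (-0.1185), Pomp (-0.3163), Psma8 (0.3256), Psmb10 (-0.4659), Psmb5 (-0.4259), Psmb6 (-0.5377), Psmb7 (-0.3892), Psmb8 (-0.6038), Psmb9 (-0.5047), Psmc1 (-0.5539), Psmd1 (-0.2737), Psmd4 (0.2379), Psmd7 (0.0432) and Psme1 (-0.1612). This alternative leaves fewer mice and few high doses.

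With array spread as a covariate, called members numbered 12 at 24 hr and 7 (for 31) in the 7 day series. In the short agent series they numbered 17 (for 11) for 600 cGy with GCSF, 11 (for 5) with LPS and 6 (for 0) without an agent, and 2 (for 0) for GCSF and 10 (for 5) for LPS at 0 cGy. In the sex-by-agent series they numbered 30 (for 8) for LPS at 24 hr and 13 (for 5) at 6 hr at 0 cGy, 22 (for 11) for the slope with GCSF at 24 hr, 17 (for 28) with LPS at 6 hr, and 8 (for 3) and 2 (for 0) for the LPS slope difference at 24 and 6 hr. The slope turned at 120 hr for Psmb8 (-0.0694), Psmb9 (-0.0719) and Psme1 (-0.0237), at 168 hr for Psmb8 (-0.0371), Psmb9 (-0.0615) and Psme1 (-0.0146), at 48 hr for Pomp (-0.0057), Psmb10 (-0.001) and Psmb6 (-0.0504) and at 72 hr for Psmb6 (-0.0202), and Psma8 turned to -0.1713 in the 7 day series.

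Quantile normalisation gave 19 in the 7 day series, 9 for LPS at 0 cGy in the short agent series, 15 for LPS at 0 cGy and 24 hr, 20 for the slope with GCSF at 24 hr, and 6 and 4 for the LPS slope difference at 24 and 6 hr. It turned the slope of Psmb8 (-0.0405), Psmb9 (-0.0598) and Psme1 (-0.013) at 120 hr, of Psmb8 (-0.0086) and Psmb9 (-0.0511) at 168 hr and of Pomp (-0.0017) and Psme1 (-0.0243) at 48 hr. A fit on the compared groups alone gave 3 for LPS at 0 cGy in the short agent series, 18 (for 0) for GCSF and 19 for LPS at 0 cGy and 24 hr, 11 (for 0) for sex and 3 (for 0) for the LPS slope difference at 6 hr. The mean of probe sets gave 3 for LPS at 0 cGy in the short agent series and 1 for GCSF at 0 cGy and 24 hr, and turned Psmd7 at 48 (0.004), 72 (0.0193), 120 (0.032) and 168 hr (0.0603). Centring gave 8 for LPS at 0 cGy in the short agent series and 4 (for 7) for the slope without an agent at 6 hr. With mouse number as a replicate block the slope without an agent at 24 hr was called for 11 members (for 20), and no other count moved by more than 1.5 times. The cause of these shifts was not tested.

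Leaving out 1 mouse of every group gave 7 to 25 at 24 hr in the dose-time series, 6 to 19 for 600 cGy with GCSF, 1 to 11 with LPS and 3 to 7 for LPS at 0 cGy in the short agent series. In the sex-by-agent series it gave 3 to 9 and 2 to 6 for LPS at 0 cGy at 24 and 6 hr, 5 to 12 for the slope with GCSF at 24 hr, 3 to 27 and 18 to 28 with LPS at 24 and 6 hr, 12 to 21 and 2 to 5 without an agent at 24 and 6 hr and 0 to 4 for the LPS slope difference at 6 hr. Psmb10 minus Psmb7 at 48 hr ran from 0.0395 to 0.0725.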
